A study of Mus musculus with 10 samples.

Results

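Described here are 5 genes of the Notch pathway, the receptors Notch1 and Notch2, the transcription factor Rbpj and the Notch target genes Hes1 and Dtx1, in mouse CD8+ T cells. They were chosen by name and not by a rule on their values, though with earlier results of these data known. Each has 1 row among the 12637 genes of the deposited table. RNA was sequenced from CD8+ T cells of the spleens of female C57Bl/6 mice 6 weeks old, whose naive cells had been sorted as CD62L-high with low or absent CD44. The mice were Ikaros-Zn4-/-, that is, homozygous for loss of the fourth zinc finger of the transcription factor Ikaros, or wild type (WT). Cells of each genotype were taken without stimulation (0 min) or after 30 min or 120 min on plate-bound antibodies against CD3, a part of the T cell receptor, and against the costimulatory receptor CD28. There were 2 Ikaros-Zn4-/- and 2 WT libraries at 0 min, 2 and 2 at 30 min, and 1 and 1 at 120 min, 10 in all. The series asks how Ikaros bears on gene expression induced through the T cell receptor.

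Notch receptors are cut after they bind ligand on a neighbouring cell, and the freed intracellular part enters the nucleus, where it binds RBPJ on DNA and turns bound genes from repressed to active. In T cells the pathway is best known for driving commitment to the T lineage in the thymus, and in mature CD8+ T cells Notch1 and Notch2 are known to contribute to effector differentiation. RBPJ and Ikaros recognise DNA with a shared core, TGGGAA, and in mouse thymocytes Ikaros is known to repress Notch target genes, Hes1 among them.

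Levels are RPKM made by the authors, that is, reads divided by gene length and by library depth, so levels can be set side by side between genes. Depth, recovered from the steps between the RPKM values, was 4.5 to 13.3 M reads per library, and 1 read on a transcript of 1 kb was worth 0.075 to 0.222 RPKM. Across genes, the replicate libraries of a group had a Pearson's r of 0.958 to 0.970. Every gene of the CD8 T cell list (6 of 6) and the naive state list (4 of 4) was in the table, with Cd8a at 456 and 511 RPKM in Ikaros-Zn4-/- cells and 390 and 436 RPKM in WT cells at 0 min, while 0 of 3 CD4 and regulatory T cell markers and 0 of 5 erythroid and platelet markers were. The early activation gene Nr4a1 was at 362 and 406 RPKM in Ikaros-Zn4-/- cells and 281 and 605 RPKM in WT cells at 30 min. At 0 min it was at 18.4 and 38.9 RPKM in Ikaros-Zn4-/- cells, but at 221 RPKM in WT replicate 1 against 28.0 RPKM in WT replicate 2, so that this WT library stood apart from the other unstimulated ones. Without it, 1 call on the 5 genes was lost, as given below. Ikzf1, which encodes Ikaros, was at 206 to 263 RPKM in Ikaros-Zn4-/- libraries and 134 to 171 RPKM in WT libraries, but a value for the whole gene does not show whether the deleted part was read. The labels do not say that replicates came from separate mice, so p-values reflect the spread among these libraries alone, which may be technical, and the lone 120 min libraries are assumed to vary like the others. In bulk RNA, fewer cells of a type and less RNA per cell cannot be told apart.

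The sequences before the start sites of 3 genes are shown because these genes carry the clearest results below: Rbpj, higher in Ikaros-Zn4-/- cells, Notch2, lower in Ikaros-Zn4-/- cells, and Dtx1, lower after stimulation. Each is the 250 bases upstream of a RefSeq start on GRCm38.p6, read 5′ to 3′ on the gene's strand, with TGGGAA or its complement TTCCCA in capitals.
Rbpj: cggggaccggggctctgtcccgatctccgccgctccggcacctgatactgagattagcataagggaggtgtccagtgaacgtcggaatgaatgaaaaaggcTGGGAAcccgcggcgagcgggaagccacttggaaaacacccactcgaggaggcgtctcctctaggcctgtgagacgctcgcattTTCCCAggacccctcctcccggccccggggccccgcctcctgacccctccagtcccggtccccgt
Notch2: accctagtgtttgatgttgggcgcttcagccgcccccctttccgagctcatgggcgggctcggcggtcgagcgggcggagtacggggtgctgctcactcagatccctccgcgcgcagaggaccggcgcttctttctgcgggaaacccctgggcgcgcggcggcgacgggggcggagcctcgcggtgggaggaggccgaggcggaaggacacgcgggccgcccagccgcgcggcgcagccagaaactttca
Dtx1: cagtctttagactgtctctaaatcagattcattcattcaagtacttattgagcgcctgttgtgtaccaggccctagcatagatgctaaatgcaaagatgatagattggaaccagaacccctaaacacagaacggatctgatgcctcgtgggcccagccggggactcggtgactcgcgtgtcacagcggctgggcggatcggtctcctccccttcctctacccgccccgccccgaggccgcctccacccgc
The Rbpj window lies at chr5:53590096-53590345 on the plus strand, the Notch2 window at chr3:98013288-98013537 on the plus strand and the Dtx1 window at chr5:120711670-120711919 on the minus strand. TGGGAA occurred 2 times in this Rbpj window, 144 to 149 bases before the start on the gene's strand and 60 to 65 bases before it on the other strand. The window of a second RefSeq start of Rbpj, chr5:53590236-53590485, held 1 match, 200 to 205 bases before that start on the other strand. Count and distance thus depend on the start chosen. TGGGAA was found 0 times, on either strand, in the Notch2 and Dtx1 windows, and 0 times in the Notch1 window. Of 32536 mouse promoter windows of this length, 21.6% held TGGGAA on at least 1 strand, and 5.43% held the longer GTGGGAA, which contains it and was in none of the 5 windows of the 4 matched genes. RefSeq promoters were matched for 4 of the 5 genes, Hes1 being the other.

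Over the 5 genes, levels spanned a wide range, and their order changed with stimulation. In both genotypes the order of the group means at 0 min was Dtx1, Notch1, Notch2, Rbpj and Hes1, and at 120 min it was Notch1, Notch2, Dtx1, Rbpj and Hes1. At 30 min WT cells kept the order of 0 min, while in Ikaros-Zn4-/- cells Hes1, at a mean of 2.42 RPKM, and Rbpj, at 2.34 RPKM, overlapped between libraries. In the other 5 groups, of which those at 120 min hold 1 library each, no neighbours in these orders overlapped. Among the 12637 genes, Notch1 stood above 86.9% to 94.7% in each library. Dtx1 stood above 94.1% to 97.6% at 0 and 30 min, and above 68.1% in Ikaros-Zn4-/- cells and 65.8% in WT cells at 120 min. Rbpj stood above 17.1% to 50.6%, and Hes1 above 0% to 30.8%.

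**Figure D1:**
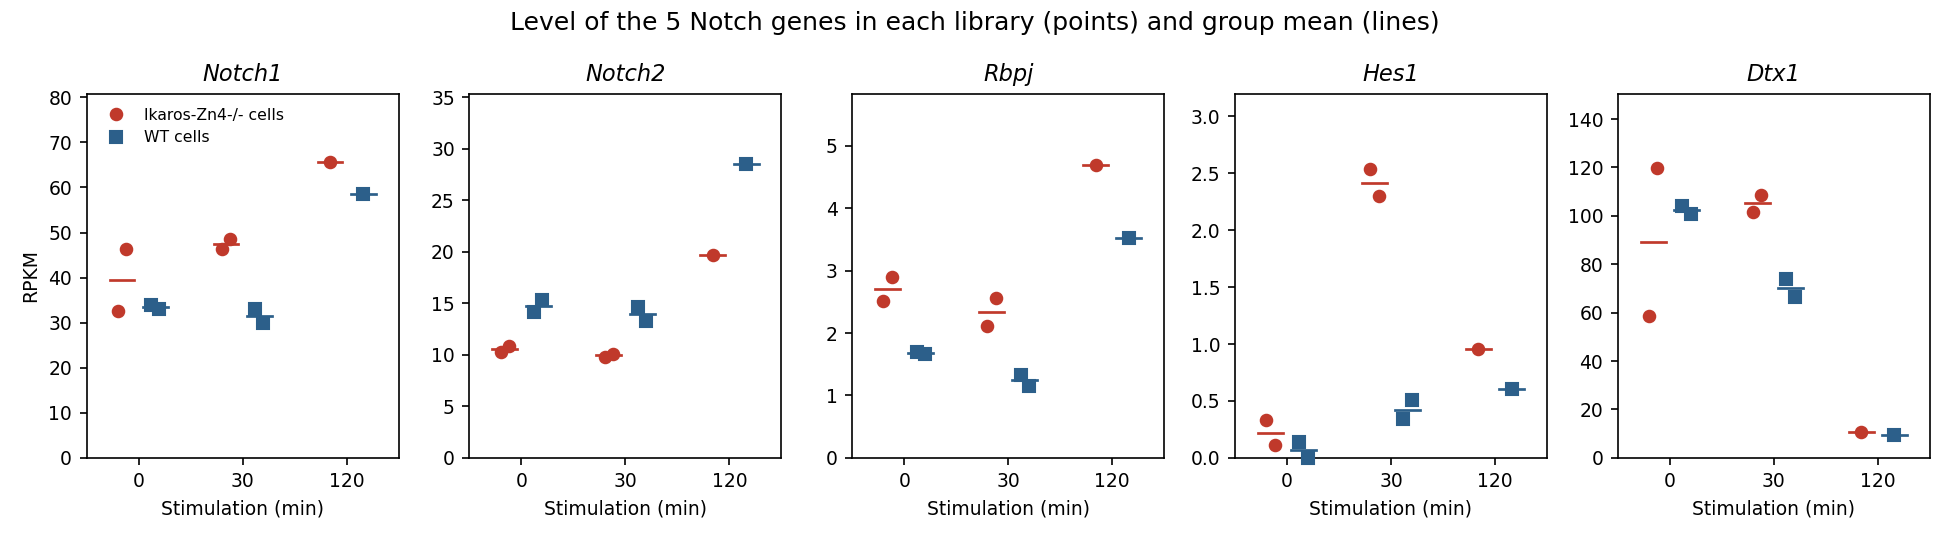
RPKM (vertical axis, linear from 0, with its own scale for each gene) by minutes of stimulation in Ikaros-Zn4-/- cells (red circles) and WT cells (blue squares), with each library a point and each group mean a line. Hes1 reaches 2.54 and 2.30 RPKM in Ikaros-Zn4-/- cells at 30 min, and Dtx1 is at 10.5 and 9.29 RPKM at 120 min in Ikaros-Zn4-/- and WT cells.

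At 30 min Hes1, a basic helix-loop-helix repressor and a classical Notch target, rose, while the receptors, Rbpj and Dtx1 did not pass the test. Hes1 (chr16:30064384-30067796, plus strand, GRCm38) was at 0.331 and 0.109 RPKM at 0 min, at 2.54 and 2.30 RPKM after 30 min and at 0.960 RPKM after 120 min in Ikaros-Zn4-/- cells. In WT cells it was at 0.137 and 0 RPKM at 0 min, at 0.339 and 0.506 RPKM after 30 min and at 0.608 RPKM after 120 min. In each genotype both 30 min libraries lay above both 0 min libraries, and the 2 Ikaros-Zn4-/- libraries at 30 min lay above all the other 8. These values rest on few reads, namely 9 and 1, 53 and 27, and 18 reads at 0, 30 and 120 min in Ikaros-Zn4-/- cells, and 3 and 0, 8 and 6, and 13 reads in WT cells. A count of 0 in WT replicate 2 at 0 min allows a level of up to 0.166 RPKM. Pooled over libraries and scaled to depth, the reads were 8.92 times as many at 30 min as at 0 min in Ikaros-Zn4-/- cells (exact 95% interval 4.60 to 19.3) and 5.26 times as many in WT cells (1.47 to 28.5), intervals that cover counting error only. Hes1 passed a group mean of 1 RPKM, which every gene in the table does in at least 1 group, in 1 of 6 groups, the Ikaros-Zn4-/- cells at 30 min. Its presence in the table therefore depends on that group being high, whereas the other 4 genes pass in all 6 groups. Tests, read ratios and counts for Hes1 that take in that group are therefore not independent of its entry. The libraries of that group also enter its mean of 0.783 RPKM over all libraries, which passes the test filter of 0.5 RPKM.

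Over both genotypes, Hes1 differed by 0.95 on the log2(RPKM + 1) scale between 30 and 0 min (SE 0.15, limma, Benjamini-Hochberg adjusted p = 0.00948). That scale understates the change of a gene this low. Without the WT library that stood apart the difference was 1.00 (adjusted p = 0.0289). A gene is named as called where this adjusted p is below 0.05. Hes1 was the only one of the 5 genes called at 30 min (1 of 5), where 19.0% of the 12203 genes tested were called. The median difference of all tested genes was -0.13, and relative to it that of Hes1 was 1.09. Within genotypes, Hes1 was the 1 gene of 5 called in Ikaros-Zn4-/- cells, where 2.74% of genes were called (log2 difference 1.49, SE 0.22, limma adjusted p = 0.023). In WT cells 0 of 5 were called, against 6.03% of genes, and Hes1 differed by 0.41 (SE 0.22, limma adjusted p = 0.262). The call within Ikaros-Zn4-/- cells was lost in 8 of 18 alternative analyses, including the removal of any 1 of the 4 Ikaros-Zn4-/- libraries at 0 or 30 min (limma adjusted p = 0.059 to 0.0981) or of either WT library at 30 min (0.0575 and 0.0585).

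None of the other 4 genes was called at 30 min over both genotypes or within either, though some libraries of the 2 times did not overlap. Notch1 (chr2:26457903-26516663, minus strand) differed by 0.10 (SE 0.12, limma adjusted p = 0.603) and Notch2 (chr3:98013527-98150361, plus strand) by -0.08 (SE 0.08, adjusted p = 0.526). Rbpj (chr5:53466152-53657362, plus strand) differed by -0.21 (SE 0.12, limma adjusted p = 0.249). The 30 min libraries lay wholly below the 0 min ones for Rbpj in WT cells, where the group mean changed by -26.0%, and for Notch2 in Ikaros-Zn4-/- cells, where it changed by -6.22%. For Dtx1 (chr5:120680202-120711927, minus strand), which encodes the ubiquitin ligase Deltex1 and is itself a Notch target, the group means moved in opposite directions in the 2 genotypes. Dtx1 was at 102 and 109 RPKM at 30 min against 58.6 and 120 RPKM before stimulation in Ikaros-Zn4-/- cells, and at 73.9 and 66.6 RPKM at 30 min against 104 and 101 RPKM at 0 min in WT cells. The WT libraries of the 2 times did not overlap, but neither the WT difference of -0.54 (SE 0.30, limma adjusted p = 0.281) nor the Ikaros-Zn4-/- difference of 0.32 (SE 0.30, adjusted p = 0.556) was called. Ikaros-Zn4-/- replicate 1 at 0 min had the lowest Dtx1 of the 8 libraries before 120 min. These positions are those of GENCODE M21 on GRCm38. Exons of Notch1 overlap 2 genes on the opposite strand and those of Notch2 overlap 1 gene on the same strand, which these unstranded libraries cannot tell apart, and processed pseudogenes of Rbpj could share its reads.

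After 120 min all 5 genes had moved: both receptors, Rbpj and Hes1 rose, and Dtx1 fell. Dtx1 fell to 10.5 RPKM at 120 min in Ikaros-Zn4-/- cells, against a mean of 89.3 ± 43.4 RPKM at 0 min (SD, n = 2), which is 8.47-fold lower. In WT cells it fell to 9.29 RPKM, against 103 ± 2.41 RPKM (SD, n = 2), which is 11.04-fold lower. Both 120 min libraries lay far below all 8 earlier ones. Over both genotypes the difference was -3.11 (SE 0.26, limma adjusted p = 9.63e-05), larger in size than that of 99.6% of the genes tested. All 5 genes were called between 120 and 0 min (5 of 5), in a comparison in which 59.7% of genes were called, so that a call here is common.

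Notch1 was at 32.6 and 46.3 RPKM at 0 min, at 46.3 and 48.5 RPKM after 30 min and at 65.6 RPKM after 120 min in Ikaros-Zn4-/- cells, and at 33.8 and 33.0, 33.0 and 29.8, and 58.5 RPKM in WT cells. Its 2 libraries at 120 min were the highest of the 10. Notch2 was at 10.3 and 10.9 RPKM at 0 min, at 9.83 and 10.1 RPKM after 30 min and at 19.7 RPKM after 120 min in Ikaros-Zn4-/- cells, and at 14.1 and 15.3, 14.6 and 13.3, and 28.6 RPKM in WT cells. In each genotype Notch2 stayed within a narrow band over the first 30 min and then stood higher, by 85.6% in Ikaros-Zn4-/- cells and 93.7% in WT cells at 120 min relative to the 0 min means. Rbpj was at 2.51 and 2.90 RPKM at 0 min, at 2.12 and 2.56 RPKM after 30 min and at 4.69 RPKM after 120 min in Ikaros-Zn4-/- cells, and at 1.70 and 1.66, 1.33 and 1.15, and 3.52 RPKM in WT cells. Rbpj was thus lowest at 30 min and highest at 120 min in the group means of both genotypes. The differences between 120 and 0 min over both genotypes were 0.77 for Notch1 (SE 0.15, limma adjusted p = 0.00381), 0.87 for Notch2 (SE 0.10, 0.000367), 0.69 for Rbpj (SE 0.14, 0.00484) and 0.64 for Hes1 (SE 0.19, 0.0211). The median of all tested genes was -0.32, and relative to it these 4 differences were 1.08, 1.19, 1.00 and 0.96, and that of Dtx1 was -2.79. In size, these 4 differences exceeded those of 47.7% to 61.4% of all tested genes. The Hes1 call was lost without the Ikaros-Zn4-/- library at 120 min (limma adjusted p = 0.112), without the WT one (0.0693) or without WT replicate 2 at 0 min (0.0517).

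**Figure D2:**
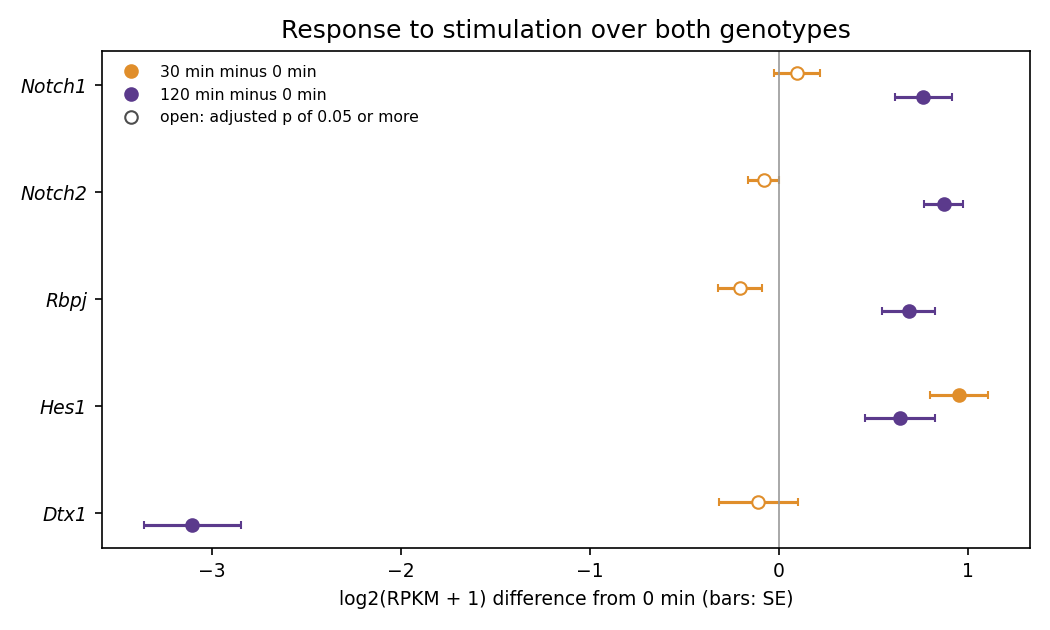
Difference in log2(RPKM + 1) from 0 min (horizontal axis) at 30 min (orange) and 120 min (purple) for the 5 genes over both genotypes, with bars for the SE and filled points for an adjusted p below 0.05. At 30 min the filled point is Hes1 at 0.95, and at 120 min all points are filled, with Dtx1 at -3.11 and the others between 0.64 and 0.87.

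Both receptors and Rbpj were also higher, and Dtx1 lower, at 120 min than at 30 min. Between 120 and 30 min 4 of 5 were called, against 48.2% of all tested genes. Notch2 differed by 0.95 (SE 0.10, limma adjusted p = 0.000473), Rbpj by 0.89 (SE 0.14, 0.00224), Notch1 by 0.67 (SE 0.15, 0.00943) and Dtx1 by -3.00 (SE 0.26, 0.000231). Hes1 differed by -0.31 (SE 0.19, limma adjusted p = 0.208). In Ikaros-Zn4-/- cells Hes1 had 0.391 times as many reads at 120 min as at 30 min for its depth (exact 95% interval 0.221 to 0.659, counting error only), while in WT cells it was at 0.608 RPKM at 120 min against 0.339 and 0.506 RPKM at 30 min. The Notch1 call was lost without the WT library at 120 min (limma adjusted p = 0.13).

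Between genotypes, Notch2 was lower and Rbpj higher in Ikaros-Zn4-/- cells at every time. The group mean of Notch2 in Ikaros-Zn4-/- cells differed from that in WT cells by -28.0% at 0 min, -28.7% at 30 min and -31.1% at 120 min. That of Rbpj, the DNA-binding partner of both receptors, was higher in Ikaros-Zn4-/- cells by 61.1% at 0 min, 88.2% at 30 min and 33.2% at 120 min. For both genes the Ikaros-Zn4-/- libraries of 0 and of 30 min lay wholly on that side of the WT libraries of the time. At 120 min, with 1 library per genotype, a lack of overlap is automatic. How many of all tested genes were likewise without overlap was not counted, here or where libraries are elsewhere said not to overlap. Over all times Notch2 differed by -0.46 (SE 0.07, limma adjusted p = 0.00376) and Rbpj by 0.48 (SE 0.10, adjusted p = 0.0161), which made 2 of 5 genes called where 9.42% of all tested genes were called. Both calls held in all 18 alternative analyses, with adjusted p of 0.00101 to 0.0169 for Notch2 and 0.00204 to 0.0466 for Rbpj. At 0 min alone 0 of 5 genes were called, against 2.47% of genes, with Notch2 at -0.44 (SE 0.12, limma adjusted p = 0.14) and Rbpj at 0.47 (SE 0.16, adjusted p = 0.259). At 30 min alone Notch2 differed by -0.45 (SE 0.12, limma adjusted p = 0.118) and Rbpj by 0.57 (SE 0.16, adjusted p = 0.14).

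Hes1 differed most between genotypes at 30 min, and Notch1 and Dtx1 were higher in Ikaros-Zn4-/- libraries after stimulation without passing the test. Hes1 was called in Ikaros-Zn4-/- against WT cells at 30 min (1 of 5 genes, against 2.61% of all tested genes), with a difference of 1.27 (SE 0.22, limma adjusted p = 0.0329). As Hes1 is in the table only through its Ikaros-Zn4-/- mean at 30 min, this call is not independent of its entry. By reads scaled to depth Hes1 was 6.22 times as high in Ikaros-Zn4-/- as in WT cells at 30 min (exact 95% interval 3.50 to 11.9, counting error only), 3.67 times at 0 min (0.944 to 20.7) and 1.58 times at 120 min (0.732 to 3.51). The call at 30 min was lost in 10 of 18 alternative analyses (adjusted p over all of them 0.0185 to 0.168), among them 7 that left out 1 library. Those 7 were either WT library at 0 min (limma adjusted p = 0.0679 and 0.0653) or at 30 min (0.168 and 0.14), Ikaros-Zn4-/- replicate 1 at 0 min (0.0528) and either Ikaros-Zn4-/- library at 30 min (0.0791 and 0.123). Over all times Hes1 differed by 0.64 (SE 0.21, limma adjusted p = 0.0988). Notch1 was at 46.3 and 48.5 RPKM in Ikaros-Zn4-/- cells and 33.0 and 29.8 RPKM in WT cells at 30 min, and its libraries overlapped between genotypes at 0 min. Its difference was 0.58 at 30 min (SE 0.17, limma adjusted p = 0.156) and 0.35 over all times (SE 0.12, adjusted p = 0.103). Without Ikaros-Zn4-/- replicate 1 at 0 min, in which Notch1 was 32.6 RPKM against 46.3 RPKM in replicate 2, the difference over all times was 0.45 (adjusted p = 0.0269). Dtx1 was also without overlap at 30 min, 102 and 109 RPKM in Ikaros-Zn4-/- cells against 73.9 and 66.6 RPKM in WT cells, with a difference of 0.58 (SE 0.30, limma adjusted p = 0.372), and at 120 min it was 10.5 RPKM in Ikaros-Zn4-/- cells and 9.29 RPKM in WT cells.

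**Figure D3:**
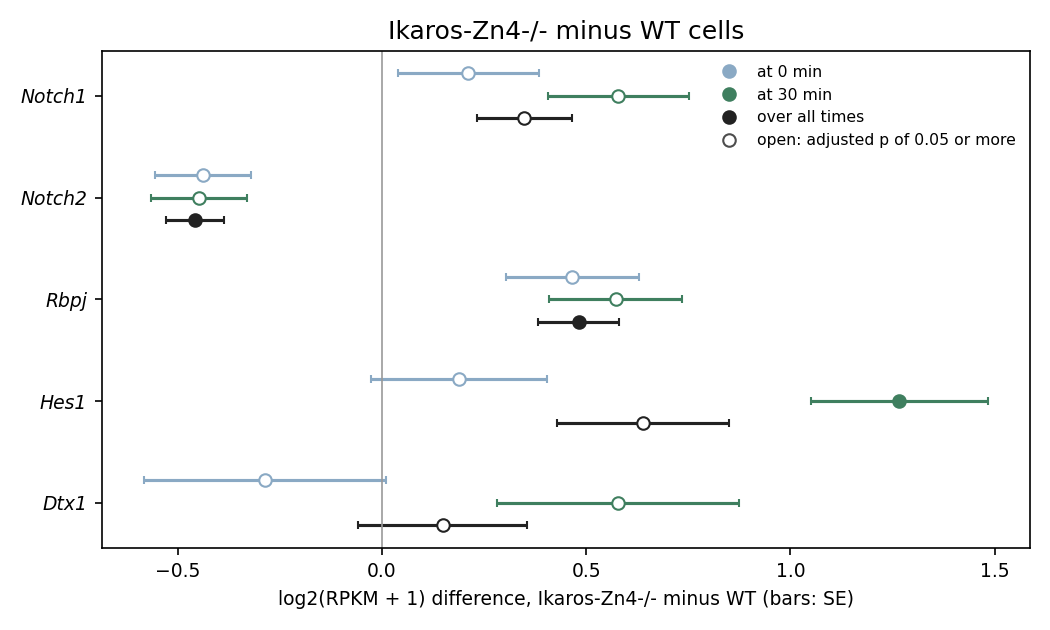
Difference in log2(RPKM + 1) between Ikaros-Zn4-/- and WT cells (horizontal axis, Ikaros-Zn4-/- minus WT) at 0 min (light blue), at 30 min (green) and over all times (black), with bars for the SE and filled points for an adjusted p below 0.05. Notch2 lies at -0.46 and Rbpj at 0.48 over all times, and Hes1 is filled at 30 min at 1.27.

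Whether stimulation acted differently on these genes in the 2 genotypes was tested as the difference between their responses. For the 30 min response that difference was 1.08 for Hes1 (SE 0.31, limma adjusted p = 0.876), 0.86 for Dtx1 (SE 0.42, adjusted p = 0.876) and 0.37 for Notch1 (SE 0.24, adjusted p = 0.898), with 0 of 5 genes called and 0.00% of all tested genes. For the 120 min response 0 of 5 and 0.00% were likewise called, with Dtx1 at 0.45 (SE 0.51, limma adjusted p = 0.99) and Notch1, Notch2, Rbpj and Hes1 between -0.13 and 0.10. Of the 12203 genes, 656 had an unadjusted limma p below 0.05 for the 30 min difference and 661 for the 120 min difference, and limma-voom on the recovered reads also called 0 in each. The larger Hes1 response measured in Ikaros-Zn4-/- cells thus did not pass the test of the difference itself.

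Markers of other cells were lower than those of CD8 T cells, and some moved with the genotype or with time. Not all were low beside the 5 genes: Cst3 lay above Rbpj and Hes1 in each library, and Cd79b did before 120 min. Between genotypes over all times, 1 of 2 B cell markers was called lower in Ikaros-Zn4-/- cells. Called higher were 1 of 2 natural killer (NK) and 1 of 3 myeloid and dendritic cell markers, beside 9.42% of all tested genes called. Of the 8 B cell markers 2 were in the table, with a summed level of 4.47 to 10.01 RPKM in Ikaros-Zn4-/- libraries and 6.98 to 15.1 RPKM in WT libraries. Of these, Cd79b was at 1.75 to 9.75 RPKM in Ikaros-Zn4-/- cells and 4.93 to 14.8 RPKM in WT cells. Like Notch2, it was lower in Ikaros-Zn4-/- cells at each time, and it was at its lowest at 120 min in both genotypes. The other, Cd79a, was at 6.26 RPKM in Ikaros-Zn4-/- cells and 3.79 RPKM in WT cells at 120 min, and at 0.152 to 0.257 RPKM in Ikaros-Zn4-/- cells and 0.192 to 0.309 RPKM in WT cells at 0 min. The rest of the 8, Ms4a1 among them, were not in the table. Of the NK cell list 2 of 4 were in the table, Gzma at 2.10 to 9.28 RPKM in Ikaros-Zn4-/- libraries and 0 to 0.212 RPKM in WT libraries, and Klrk1 at 0.602 to 1.39 RPKM in Ikaros-Zn4-/- libraries and 0.559 to 1.72 RPKM in WT libraries. Of the myeloid and dendritic cell list 3 of 6 were, with a summed level of 8.59 to 34.2 RPKM in Ikaros-Zn4-/- libraries and 8.14 to 24.8 RPKM in WT libraries. Among them Itgam was at 0.869 to 1.61 RPKM in Ikaros-Zn4-/- and 0.164 to 0.307 RPKM in WT libraries. The other 2 overlapped between genotypes, Cst3 at 6.52 to 19.6 and 7.75 to 23.6 RPKM and Lyz2 at 0.822 to 14.1 and 0.226 to 4.05 RPKM. Gzma and Itgam reached a group mean of 1 RPKM in Ikaros-Zn4-/- groups only, so their place in the table depends on those groups. The part of these cells in the genotype differences of Notch2, Rbpj and Hes1 was not tested. Cd8a itself was at 52.2 RPKM in Ikaros-Zn4-/- cells and 47.5 RPKM in WT cells at 120 min.

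Of 65 further genes of the pathway, 47 were in the table and all 47 were tested. At 120 min against 0 min 17 of them were higher and 15 lower, 32 of 47 in all, in the comparison in which 59.7% of all 12203 tested genes were called (2356 higher and 4935 lower), so that a call among them is about as common as among all genes. Their median difference was 0.10, beside -0.32 for all tested genes. Between 120 and 30 min, where 48.2% of all tested genes were called, the counts were 15 and 11, and without the Ikaros-Zn4-/- library at 120 min 6 in place of 11 were lower. The enzymes that fit sugars to the receptor fell with 1 exception. Pofut1, which adds O-fucose to Notch, differed by -1.96, Poglut1, which adds O-glucose, by -1.10, and the Fringe enzymes Rfng and Mfng, which extend O-fucose, by -1.91 and -1.15. The third Fringe, Lfng, rose by 0.58. Furin, the protease that cuts the receptor on its way to the surface, rose by 2.31. It was at 38.7 RPKM against 4.96 and 6.56 RPKM unstimulated in Ikaros-Zn4-/- cells, and at 43.2 RPKM against 9.40 and 9.87 RPKM in WT cells. Of the genes of γ-secretase, which cuts the receptor in the membrane, Psen2 fell by 1.43, Ncstn by 1.39 and Aph1a by 0.56. The ligand-triggered protease genes Adam10 and Adam17 were not called.

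In the nucleus, some coactivator and some corepressor genes rose at 120 min, and about as many were not called. The counts by role are small and stand beside the same 59.7% of all tested genes called. Of 8 activator genes 4 rose and 1 fell: the acetyltransferase genes Crebbp (1.97), Ep300 (1.45) and Kat2b (0.65) and the Mastermind gene Maml1 (1.45) rose, and Kat2a fell by 0.74. Snw1 and Maml2, not called against 0 min over both genotypes, were higher at 120 than at 30 min by 0.52 and 0.43, and Maml2 was also called against 0 min in WT cells (0.43, limma adjusted p = 0.0384). Of 10 measured repressor genes 4 rose and 1 fell: Tle4 (2.00), the histone demethylase gene Kdm5a (1.55), Spen (1.00), whose product recruits corepressors to RBPJ, and Tle1 (0.74) rose, and L3mbtl3 fell by 0.46. Of 12 measured genes of turnover and trafficking 5 rose and 5 fell. Those that rose were Neurl3 (1.76), Dtx2 (1.07), Mib1 (0.55), Fbxw7 (0.54), which targets the Notch intracellular domain for degradation, and Numb (0.52), a Notch inhibitor. Those that fell were Dtx3 (-2.07), Nedd4 (-1.93), Dtx3l (-1.06), Mib2 (-0.56) and Aak1 (-0.39). Of the Deltex family, then, Dtx2 rose while Dtx1, Dtx3 and Dtx3l fell, and Dtx4 was not called. The 32 calls of these lists at 120 min had limma adjusted p of at most 0.0366.

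**Figure D4:**
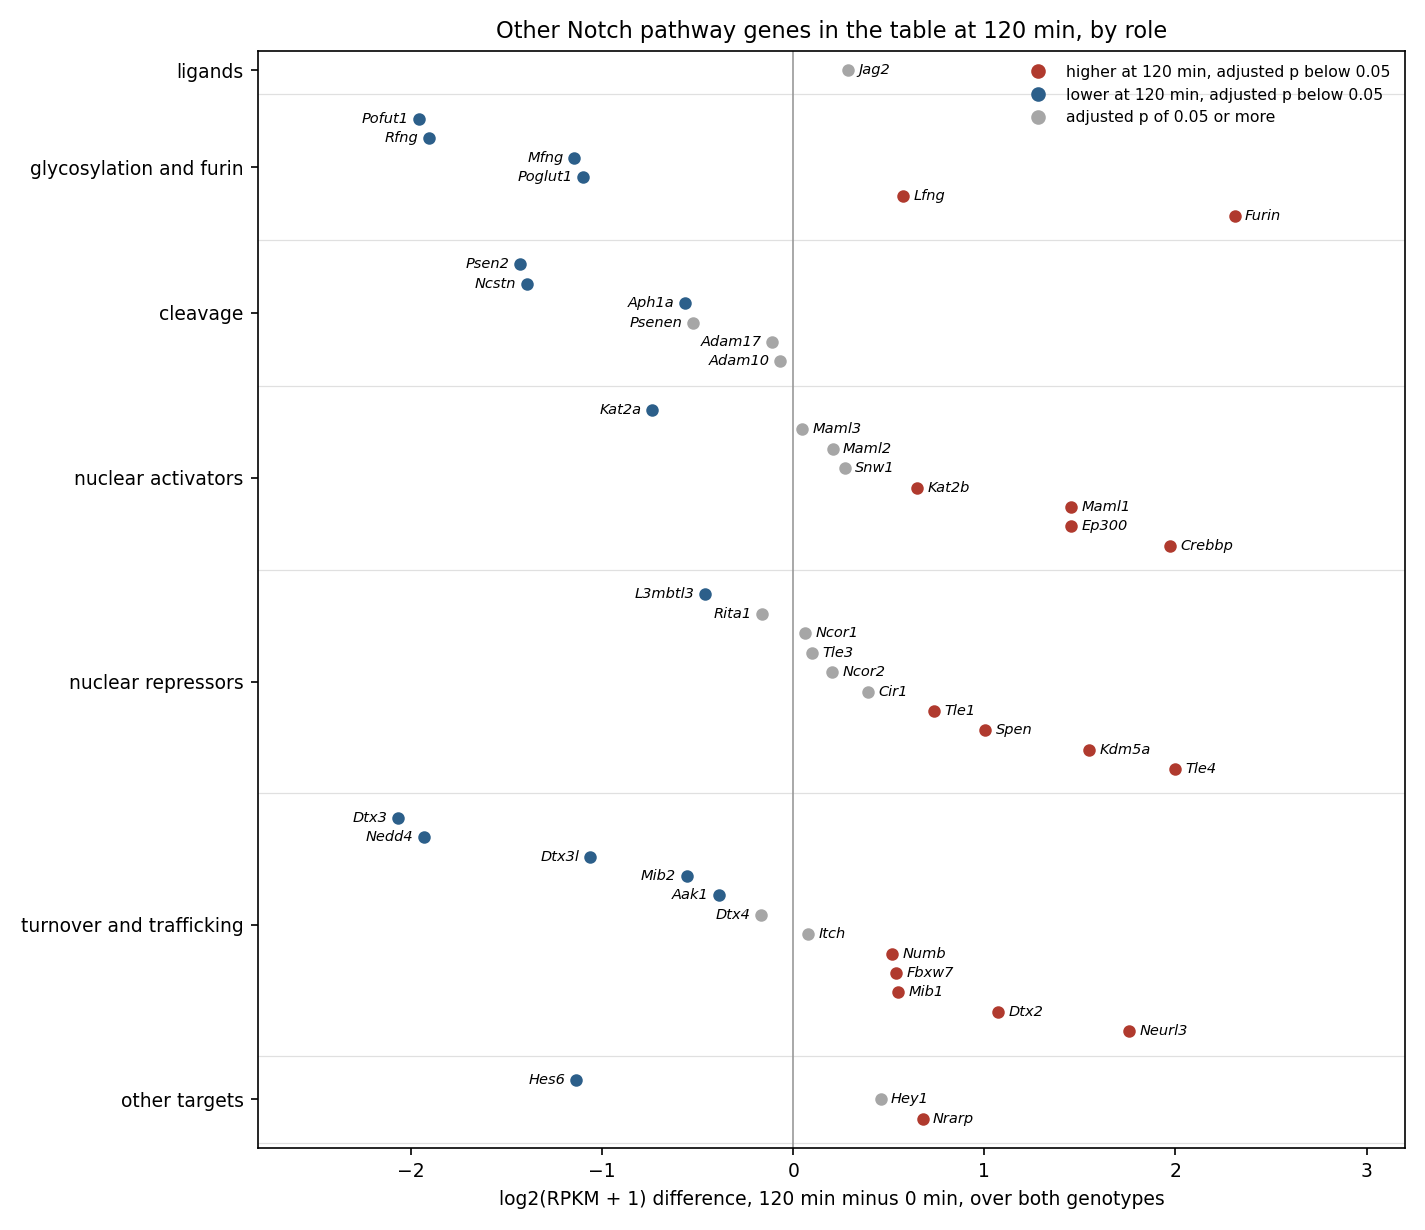
Difference in log2(RPKM + 1) between 120 and 0 min over both genotypes (horizontal axis) for further pathway genes in the table, grouped by role down the page, with red for higher and blue for lower at an adjusted p below 0.05 and grey for the rest. Furin at 2.31, Tle4 at 2.00 and Crebbp at 1.97 lie at the right, and Dtx3 at -2.07 and Pofut1 at -1.96 at the left.

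At 30 min against 0 min 5 of the 47 genes rose and 6 fell, near the 19.0% of all tested genes called, with a median of -0.08 beside -0.13 for all tested genes. Nrarp, a Notch target whose product inhibits the pathway, rose by 0.88 (SE 0.18, limma adjusted p = 0.0205). It was at 1.34 to 1.78 RPKM at 30 min against 0.174 to 0.258 RPKM at 0 min in Ikaros-Zn4-/- cells, and at 1.46 to 2.91 RPKM against 0.830 to 1.00 RPKM in WT cells. Like Hes1, it had both 30 min libraries above both 0 min libraries in each genotype. Of the other Hes and Hey family genes measured, Hes6 fell by 0.57 (SE 0.10, limma adjusted p = 0.0138), and Hey1 was not called. Hey1 was at 1.10 to 1.60 RPKM at 30 min against 0.302 to 0.374 RPKM at 0 min in Ikaros-Zn4-/- cells. In WT cells it was at 1.01 to 1.49 RPKM against 0.409 to 1.01 RPKM. Nrarp and Hey1 reached a group mean of 1 RPKM in stimulated groups only. Their place in the table thus depends on those groups, and their higher values there are not independent of it. The other genes that rose were Furin (0.65), Fbxw7 (0.58), Tle4 (0.55) and Kat2b (0.52), and the others that fell were Dtx3l (-1.11), Dtx3 (-0.65), Ncstn (-0.59), Pofut1 (-0.45) and Kat2a (-0.30). With 1 library left out the counts were 0 to 6 higher and 2 to 6 lower. They were 0 and 2 without WT replicate 2 at 0 min or WT replicate 1 at 30 min, 1 and 3 without WT replicate 1 at 0 min or Ikaros-Zn4-/- replicate 1 at 30 min, 2 and 3 without WT replicate 2 at 30 min, and 2 and 4 or 1 and 4 without Ikaros-Zn4-/- replicate 1 or 2 at 0 min. The Nrarp call was lost in 6 of these analyses (adjusted p up to 0.0667) and the Hes6 call in 2 (up to 0.0588). Within Ikaros-Zn4-/- cells 0 rose and 1 fell (Dtx3l), where 2.74% of all tested genes were called, and within WT cells 1 rose (Kat2b) and 3 fell (Dtx3l, Hes6 and Kat2a), where 6.03% were.

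Between genotypes over all times, 3 of the 47 genes were higher and 1 lower in Ikaros-Zn4-/- cells, about the 9.42% of all tested genes called (755 higher and 395 lower), with a median of -0.05. Dtx4, another Deltex gene, was at 4.86 to 7.55 RPKM in Ikaros-Zn4-/- libraries and 1.48 to 2.87 RPKM in WT libraries, without overlap, a difference of 1.13 (SE 0.15, limma adjusted p = 0.00147). At 0 min alone it was the 1 gene of the 47 called (1.47, SE 0.21, limma adjusted p = 0.0179), a call lost without WT replicate 2 or without either Ikaros-Zn4-/- library at 0 min (adjusted p up to 0.123), and at 30 min alone 0 of 47 were called, beside 2.47% and 2.61% of all tested genes at these times. Neurl3, which encodes a RING-finger protein of the Neuralized family, was lower in Ikaros-Zn4-/- cells, at 27.2 to 31.2 RPKM against 46.9 to 64.7 RPKM in WT cells at 0 min, 31.9 to 46.2 RPKM against 64.8 to 97.2 RPKM at 30 min and 103 RPKM against 185 RPKM at 120 min. Its difference over all times was -0.94 (SE 0.15, limma adjusted p = 0.00438). Maml3 (0.43, SE 0.10, adjusted p = 0.031) and Kat2b (0.35, SE 0.08, adjusted p = 0.0326) were also higher, but 1 gene in place of 3 was called higher without any 1 of the WT libraries at 0 or 30 min, of the Ikaros-Zn4-/- libraries at 0 min, or without Ikaros-Zn4-/- replicate 2 at 30 min. The calls of Dtx4 and Neurl3 over all times held in all 18 alternatives, and 2 genes in place of 1 were called lower without Ikaros-Zn4-/- replicate 1 at 30 min. Nrarp, in contrast to Hes1, was at a lower level in Ikaros-Zn4-/- than in WT libraries at 0 min and was not called between genotypes. The test of a difference between genotypes in the response called 0 of the 47 at either time.

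As a description, the profiles of the 5 genes over the 10 libraries, which share the 3 times and 2 genotypes, were set beside those of all other tested genes by Pearson's r of log2(RPKM + 1). Close to Notch1 were Aars (0.950) and Lzts2 (0.943). Closest to Notch2 were Inadl (0.991), Tbc1d31 (0.985) and Sh2b3 (0.983). Closest to Rbpj were Nptn (0.981), Slc16a10 (0.981) and Myo1c (0.975). Closest to Hes1 were Nuak2 (0.906), Rnd1 (0.890) and Gm6085 (0.869). Closest to Dtx1 were Sppl2b (0.996), Babam1 (0.994) and Fkbp8 (0.994). Among the 5 genes themselves r was 0.896 between Notch1 and Rbpj, 0.413 between Notch1 and Notch2, -0.833 between Notch2 and Dtx1 and -0.06 between Hes1 and Dtx1.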

How the data were processed

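RNA of 10 libraries was made into single-end, unstranded TruSeq libraries and sequenced on a HiSeq, per the labels' protocols. The authors deposited RPKM values, 1 column per library; the submitters' processing notes name TopHat2 2.0.12, TopHat, HTSeq 0.6.1, mm10 and GRCm38. Not given in the sources used here are the annotation, the gene lengths and the authors' filter. Every one of the 12637 genes reaches a group mean of 1 RPKM in at least 1 group.

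Tests were run with limma 3.58.1 in R 4.3.3 on log2(RPKM + 1), with a pseudocount of 1 RPKM, for 12203 genes (those averaging 0.5 RPKM or more over all libraries), with 1 mean per group fitted to all 10 libraries, moderated with a mean-variance trend. The genotype comparison over all times used an additive fit of genotype and time. Two-sided p-values were Benjamini-Hochberg adjusted over all tested genes, and a gene was called at an adjusted p below 0.05. The fit was tested on simulated data. Reads and depth were recovered from the RPKM steps with GENCODE M21 exon lengths: 65.7% to 71.1% of values below 200 reads lay within 0.01 read of a whole number, and the recovered reads of the table summed to 94.0% to 101% of the depth. For Hes1 and Notch1 all 10 values were whole reads, but for Notch2, Rbpj and Dtx1 they were not. The lengths of these genes thus differ from those used by the authors, and no reads are given for them. Exact 95% intervals and the floor of 3 reads cover counting error only.

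All 5 genes were named in every comparison. Of the 65 further pathway genes, those called at least 1 time were named, and the 3 genes of highest r for each of the 5, except a few genes that are not reported here. Members and lists were chosen with earlier results of these data known. Alternatives were other pseudocounts (0.1 and 0.5), filters (none and a mean of 2 RPKM), scalings, the spread of the compared groups alone, limma-voom on recovered reads, a replicate block and leaving out each library. The labels name no batch. Replicate numbers were not used to pair the libraries in the main fit. Deviations from group means correlated at 0.0369 to 0.23, all positive but not above 0.1 in every pair. Mki67 was at 1.89 and 1.86 RPKM in Ikaros-Zn4-/- replicate 1 at 0 and 30 min, against 5.29 and 5.73 RPKM in replicate 2. In WT cells it was at 3.06 and 2.76 RPKM against 2.20 and 2.81 RPKM. Beyond the replicate block, an effect shared by libraries of 1 replicate number was not tested.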

Additional observations from a re-analysis of the deposited data

How the results depend on the processing

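Of 925 alternative values for the 50 results on the 5 genes, 899 kept their side of the threshold, 22 lost a call and 4 gained one. Counting only results called in at least 1 of the 2 fits compared, 0 reversed direction. Differences called in neither fit could change sign and were counted as kept. Notch2 between 30 and 0 min over both genotypes, for example, was -0.08 in the main fit and 0.05 with median ratio scaling. The number of the 5 genes called between 30 and 0 min over both genotypes was 0 when genes averaging under 2 RPKM were dropped, Hes1 among them, and 1 under every other alternative. Within Ikaros-Zn4-/- cells it was 0 with that filter, with a pseudocount of 0.1 and with a spread taken from the compared groups only, and 0 to 1 with 1 library left out. Between genotypes at 30 min it was 0 with that filter, with pseudocounts of 0.1 and 0.5 and with the compared groups' own spread, 2 with limma-voom on recovered reads, which added Rbpj (0.87, adjusted p = 0.0351), and 0 to 1 with 1 library left out. Between genotypes over all times it was 4 with limma-voom, which added Hes1 (1.94, adjusted p = 0.00787) and Notch1 (0.34, adjusted p = 0.0495). The limma-voom call on Rbpj used recovered reads that were not whole, as the gene length behind them differs from that of the authors. Beyond the removal of Hes1 by the filter, the cause of these changes was not tested.

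The counts over all genes moved more, given as the reported count, the range with 1 library left out and the range under the other alternatives. Between 30 and 0 min they were 2317, 779 to 2316 and 1946 to 3484 over both genotypes, 334, 39 to 337 and 0 to 973 in Ikaros-Zn4-/- cells, and 736, 13 to 744 and 233 to 1891 in WT cells. Between 120 and 30 min they were 5885, 3339 to 5769 and 5037 to 6419. Between genotypes they were 1150, 706 to 1036 and 948 to 1567 over all times, 302, 105 to 300 and 96 to 635 at 0 min, and 319, 86 to 315 and 80 to 612 at 30 min. The difference between genotypes called 0 genes at 30 min, 0 to 1 with 1 library left out, and 0 genes at 120 min, up to 13 with no filter. Among the 47 further pathway genes, the calls between 30 and 0 min ranged under the other alternatives from 4 to 7 higher and 3 to 8 lower.

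With the replicate block, the fit that adds replicate number, Hes1 differed between 30 and 0 min by 0.95 over both genotypes (adjusted p = 0.00957), Notch2 between genotypes by -0.46 (0.00392) and Rbpj by 0.48 (0.0162). The block changed no call on the 5 genes, while 3484 genes in place of 2317 were called between 30 and 0 min over both genotypes. Depth limits Hes1 above all, at 0 to 53 reads per library. With 2 libraries or 1 per group, a missed call does not show that a gene was equal between groups.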
